A study of Mus musculus with 8 samples.

Results

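The lipid enzyme knockouts were the OT-I T cells that carried a single guide RNA against 1 of 9 enzymes of fatty acid and lipid metabolism: Elovl1, Fads1, Acsl5, Phyh, Agps, Pla2g4a, Alox8, Asah2 and Cyp4a30b. A cell was taken when exactly 1 guide had been called in it, when the target of that guide was 1 of these genes and when mitochondrial genes held at most 10% of its UMIs (unique molecular identifiers, the counted transcript molecules). These rules kept 2466 of 23337 cells and all 27 guides to the 9 enzymes, 3 per enzyme, out of a library of 280 guides. The cells with 1 of 34 nontargeting guides (sgNT, 2730 cells) served as controls within each library. They carried the same vector and Cas9.

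The screen was a CROP-seq experiment, in which the guide and the transcriptome are read from the same cell. CD8+ T cells came from OT-I:Rosa26-Cas9 mice, which express Cas9 constitutively and a transgenic T cell receptor against an ovalbumin peptide, and were transduced with a pool of guides in a vector marked by CD90.1. They were transferred into Rosa26-Cas9 mice with KPC_OVA pancreatic tumours, and CD90.1+ cells were sorted from the primary tumour 7 days later, after treatment of the hosts with anti-PD-1 (3 libraries) or an IgG control antibody (1 library). The study describes several mice per treatment, more than 1 experiment and a correction between batches, but the labels tie neither animals nor batches to a library, so batch and library cannot be told apart. The titles of anti-PD-1 replicates 1 and 2 share a name with numbered endings, so the spread between libraries may in part be technical.

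Fatty acids enter metabolism once they are bound to coenzyme A, and are then lengthened, desaturated, built into phospholipids, ether lipids and sphingolipids, or oxidised in mitochondria and peroxisomes. Cells sense the lipids of their membranes through the SREBP transcription factors: SREBP1 drives fatty acid synthesis and desaturation, and SREBP2 cholesterol synthesis and uptake. Activated CD8+ T cells switch on both programmes when they divide, since each division needs new membrane. Of the 9 enzymes, Acsl5 is a long-chain acyl-CoA synthetase, Elovl1 elongates very-long-chain fatty acids and Fads1 is the delta-5 desaturase of polyunsaturated fatty acids. Phyh starts the alpha oxidation of phytanic acid in peroxisomes, and Agps makes the ether bond of plasmalogen precursors there. Pla2g4a, the cytosolic phospholipase A2, releases arachidonic acid from membranes, Alox8 is an arachidonate lipoxygenase, Asah2 is the neutral ceramidase and Cyp4a30b belongs to the cytochrome P450 family of fatty acid omega-hydroxylases.

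Of the 27 guides, 25 matched the coding sequence of their target gene in the annotated transcripts. The 15 guides to Acsl5, Elovl1, Fads1, Phyh and Agps are shown because the transcripts of these 5 enzymes were measurable in control cells, so that each guide could be set beside the level of the gene it cuts. The sequences are written 5′ to 3′ and the capitals mark the 12 bases next to the PAM, the short motif that Cas9 needs beside its target.
Acsl5_gRNA1: ctctgctcGATCAGACACCT
Acsl5_gRNA2: tagaccctGTTAAGGAGTCG
Acsl5_gRNA3: cgtcatcaAAAGGGTCCATG
Elovl1_gRNA1: ggctattgGAAAAGTCTATG
Elovl1_gRNA2: gggcagacAATCCATAGTAG
Elovl1_gRNA3: tccaaagcTACCCTCTGATG
Fads1_gRNA1: gaggcccaTTCGCTCTACTG
Fads1_gRNA2: gggggtgcATGTTGATATCG
Fads1_gRNA3: gtggcattCCACATCAACAA
Phyh_gRNA1: ctcattatAACGATCCCTGG
Phyh_gRNA2: cccaaaggATACAATCGTTG
Phyh_gRNA3: aaacaattAGGTTGCTAGGT
Agps_gRNA1: gtaccaatGAGTGCAAAGCG
Agps_gRNA2: gtaaaaccAAGCCACTAAGT
Agps_gRNA3: tcagagaaGGGATGTTTGAG

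Acsl5 (ENSMUSG00000024981) lies on the plus strand of chromosome 19 from 55251938 to 55297720 (GRCm38, GENCODE M21). Acsl5_gRNA2 lies in coding exon 12 at chr19:55284511-55284530 on the minus strand and is expected to cut after coding base 1059 of 2049, and Acsl5_gRNA3 lies in exon 7 at chr19:55280541-55280560, also on the minus strand, with its cut after base 635. Acsl5_gRNA1 matched the transcript only across an exon junction, with 2 bases in exon 4 and 18 in exon 5, and read GTT rather than NGG at the place of the PAM in the spliced sequence. The genomic bases beside it were not used here. Acsl5_gRNA3 also matched whole in a transcript of Zdhhc6, and the Zdhhc6 level in cells with this guide differed from the nontargeting guides by a log2 fold change of 0.58 ± 0.31 (SE, adjusted p = 0.97, edgeR).

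The guides to the elongase and the desaturase fell early or in the middle of their coding sequences. Elovl1 (ENSMUSG00000006390, chromosome 4, 118428093 to 118432953, plus strand) was targeted in exon 4 at chr4:118431110-118431129, in exon 7 at chr4:118431655-118431674 and in exon 3 at chr4:118430724-118430743 by guides 1, 2 and 3, with cuts at 34.3%, 64.8% and 8.60% of the coding length. Guides 1 and 2 lie on the minus strand and guide 3 on the plus strand. Fads1 (ENSMUSG00000010663, chromosome 19, 10182888 to 10196877, plus strand) was targeted in exons 3, 5 and 2 at chr19:10185722-10185741, chr19:10186829-10186848 and chr19:10184936-10184955, at 27.1%, 52.3% and 17.8% of its coding sequence.

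Among the peroxisomal enzymes, Agps (ENSMUSG00000042410, chromosome 2, 75832177 to 75931350, plus strand) was targeted in exons 1, 3 and 5 at chr2:75832412-75832431, chr2:75852728-75852747 and chr2:75854558-75854577, at 10.7%, 19.8% and 32.0% of its coding length. Phyh (ENSMUSG00000026664, chromosome 2, 4919019 to 4938730, plus strand) was targeted by guide 1 in exon 4 at chr2:4927390-4927409 and by guide 3 in exon 6 at chr2:4930768-4930787. Phyh_gRNA2, like Cyp4a30b_gRNA2, matched none of the annotated transcripts of its target.

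The number of cells per enzyme was small and uneven. Agps guides were found in 338 cells, Alox8 guides in 317, Elovl1 in 295, Asah2 in 290, Acsl5 in 274, Cyp4a30b in 254, Pla2g4a in 246, Fads1 in 244 and Phyh in 208. The IgG library held 1299 of the 2466 cells, and anti-PD-1 replicates 1, 2 and 3 held 260, 256 and 651. The 4 libraries summed to between 48227839 and 89064644 UMIs over all cells kept, with a median of 6298 UMIs per cell in IgG and 11968.5 to 16744.5 in the anti-PD-1 libraries. T cell identity genes (Cd3d, Cd3e, Cd3g, Cd8a, Cd8b1, Trac, Cd2 and Thy1) summed to between 5742 and 7646 CPM (the UMIs of a gene scaled to the total UMIs of the same cells) in the knockouts and between 6467 and 7095 CPM in sgNT. Erythroid markers were at 0, and no barcode was shared between libraries among the lipid knockout cells. Median guide UMIs per cell ran from 2 to 9 over enzymes and libraries and from 3 to 4 in sgNT, and some cells had 1. In sgElovl1 cells the median was 2 in anti-PD-1 replicates 1 and 2.

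Each knockout was compared with sgNT within libraries, on UMIs summed for each target in each library and with library as a blocking term, by edgeR's quasi-likelihood test over 10020 genes in 1 fit of all 83 targets. A gene is said to be called when its p-value, adjusted by Benjamini-Hochberg within the target, was under 0.05. Fold changes are log2 values. Their standard error was taken as the fold change divided by the root of the test's F statistic, which is approximate at low counts. The sequencing reads the 3′ end of transcripts, so a lower level of the targeted gene shows fewer transcripts but not whether the coding sequence was cut.

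The targeted transcript was below sgNT in every library for Acsl5, Agps, Fads1 and Phyh, and was called lower for Acsl5 alone. Acsl5 was at 41.7, 32.7 and 28.8 CPM in anti-PD-1 replicates 1 to 3 and at 30.6 CPM in IgG in its own knockout, against 56.4, 58.0, 61.2 and 62.2 CPM in sgNT. The groups did not overlap. The log2 fold change was -0.86 ± 0.17 (adjusted p = 0.0041, edgeR), 55.3% of sgNT, and over the other 82 targets the Acsl5 transcript ran from -0.88 to 0.42, with 0 called by edgeR and 4 at an unadjusted p under 0.05. In its own knockout it was -0.78 without anti-PD-1 replicate 3 (adjusted p = 0.54, edgeR) and -0.76 without IgG (adjusted p = 0.71, edgeR).

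Agps was at 15.2, 11.3, 15.3 and, in IgG, 12.1 CPM in its knockout and at 19.8, 21.3, 21.4 and 22.6 CPM in sgNT. The knockout was lower in 4 of 4 libraries with no overlap, by -0.69 ± 0.22 on the log2 scale, which did not pass the adjustment over all genes (unadjusted p = 0.0019, adjusted p = 1.0, edgeR). Phyh was at 0, 4.37, 1.23 and 14.1 CPM against 12.2, 9.80, 17.5 and 14.3 CPM. It was nearly level in IgG and lower in the 3 anti-PD-1 libraries, where sgPhyh held 12, 12 and 63 cells, and the fitted difference was -1.20 ± 0.40 (unadjusted p = 0.0030, adjusted p = 0.74, edgeR). Of the 11 Phyh UMIs in IgG, 9 came from cells with Phyh_gRNA1.

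Fads1 was a low transcript, with 3 UMIs in 244 knockout cells and 121 in the sgNT cells, at a mean of 1.05 ± 0.82 CPM against 3.70 ± 0.99 (SD, n = 4 libraries) and a log2 fold change of -1.59 ± 0.75 (unadjusted p = 0.035, adjusted p = 1.0, edgeR). Elovl1 was at 28.8, 45.1, 41.6 and 49.6 CPM in its own knockout against 45.3, 40.2, 47.9 and 48.4 CPM in sgNT. The values overlapped, with the knockout lower in 2 of 4 libraries and a log2 fold change of -0.14 ± 0.14 (unadjusted p = 0.31, adjusted p = 1.0, edgeR). The remaining 4 enzymes were not tested. Asah2 had 0 UMIs in its knockout and 45 in sgNT, Alox8 had 0 and 8, and neither Pla2g4a nor Cyp4a30b had a UMI in either set of cells.

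The level of the targeted transcript was also taken guide by guide. Acsl5_gRNA1 cells had 51 Acsl5 UMIs in 107 cells (45.9 CPM over all libraries), whereas Acsl5_gRNA2 and Acsl5_gRNA3 cells had 21 UMIs each in 81 and 86 cells (25.2 and 22.5 CPM), and sgNT had 59.9 CPM. Against the nontargeting guides the log2 fold changes were -0.38 ± 0.22, -1.20 ± 0.34 and -1.26 ± 0.30, of which none passed the adjustment over all genes (adjusted p = 0.95, 0.37 and 0.056, edgeR). With the nontargeting guides as 1 group, an alternative chosen after seeing the data, Acsl5_gRNA3 passed (-1.26, adjusted p = 0.048, edgeR). The 3 Agps guides, with 2 libraries each, lay between -0.58 and -0.83, and the Elovl1 guides at -0.48, -0.07 and 0.02. Phyh guides 1, 2 and 3, also with 2 libraries each, lay at 0.01, -2.57 and -1.55, on 9, 2 and 2 UMIs. The lowest was thus the guide that matched no annotated Phyh transcript. Fads1 did not enter the guide comparison.

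Knockout of Acsl5 went with a rise of the stearoyl-CoA desaturases, the enzymes that make monounsaturated fatty acids. In sgAcsl5 cells 3 of the 10020 genes were called (0.0299%): Scd2 and Scd1 were higher and Acsl5 itself was lower. Scd2 was at 112, 98.1 and 74.8 CPM in anti-PD-1 replicates 1 to 3 and at 124 CPM in IgG, against 37.9, 36.4, 42.1 and 51.3 CPM in sgNT. Every sgAcsl5 library lay above every sgNT library. The means were 102 ± 21.2 and 41.9 ± 6.71 CPM (SD, n = 4), and the log2 fold change was 1.29 ± 0.18, or 2.45-fold (adjusted p = 3.6e-08, edgeR).

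The Scd2 UMIs were spread over many cells, with 306 UMIs in 135 of 274 sgAcsl5 cells and at most 14, or 4.58%, from any 1 cell. Scd1, its paralogue, was barely detected in control cells, with 13 UMIs in 2730 sgNT cells and 16 in the 274 sgAcsl5 cells. It was at 10.4, 4.67, 1.44 and 6.28 CPM in sgAcsl5 and at 0, 0, 0.764 and 0.546 CPM in sgNT, higher in 4 of 4 libraries, with a fitted log2 fold change of 3.46 ± 0.64 (adjusted p = 9.0e-04, edgeR). The fitted fold of so low a transcript depends on the prior count, and over the other 82 targets it ran from -2.09 to 3.95, the highest with Pigc guides, with 0 called by edgeR and 3 at an unadjusted p under 0.05. Without anti-PD-1 replicate 1 the log2 fold change of Scd1 was 2.87 (adjusted p = 0.54, edgeR), and DESeq2 did not call it. Scd1 and Scd2 are near copies, and the sources used here do not say how reads shared by them were counted.

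All 3 Acsl5 guides carried the Scd2 difference. Cells with Acsl5_gRNA1 were at 86.0, 91.6, 65.4 and, in IgG, 131 CPM of Scd2, those with Acsl5_gRNA2 at 72.8, 67.1, 98.0 and 125 CPM, and those with Acsl5_gRNA3 at 131, 186, 55.0 and 114 CPM. Each of these 12 values lay above the highest sgNT library, although the smallest of these groups held 2 cells. Against the nontargeting guides Scd2 was higher by 1.27 ± 0.22, 1.31 ± 0.27 and 1.40 ± 0.25 on the log2 scale (adjusted p = 3.3e-04, 0.014 and 7.8e-04, edgeR). With 1 library left out, the call was lost for Acsl5_gRNA1 without IgG (1.39), for Acsl5_gRNA2 without anti-PD-1 replicate 3 or IgG (both 1.36) and for Acsl5_gRNA3 without anti-PD-1 replicate 1 (0.95). Sums of fewer than 10 cells did not enter these tests, which rested on 4, 2 and 3 libraries for guides 1, 2 and 3. Without anti-PD-1 replicate 3 or IgG, Acsl5_gRNA2 is left with 1 sum, which is assumed to vary like the sums of the other guides. The differences between the 3 guides were not tested.

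For scale, the same Scd2 contrast in single nontargeting guides against the other nontargeting guides ran from -0.76 to 0.98 with 0 of 34 called by edgeR and 2 at an unadjusted p under 0.05. Over the other 82 targets of the pool it ran from -1.57 to 0.58, again with 0 called by edgeR and 2 at an unadjusted p under 0.05. Within the other 8 lipid enzymes it ran from -0.23 to 0.26. Scd2 was the only gene called with all 3 guides of any lipid enzyme; 1 other gene, Gzmd with Alox8 guides, was called with 2.

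The cholesterol synthesis and uptake genes that SREBP2 controls stood higher in sgAcsl5 cells as a list, though none was called. Of 19 genes tested, 18 had a fold change above 0 and 13 were higher at an unadjusted p under 0.05. The median log2 fold change of the list was 0.53, beside -0.01 over all genes tested, of which 192 of 10020 were higher at that level. Among the higher values were those of Lss, lanosterol synthase (0.81 ± 0.35), and Mvd, mevalonate diphosphate decarboxylase (0.81 ± 0.30). Hmgcs1, which makes the HMG-CoA that enters the pathway, was at 0.53 ± 0.20, while Insig1 (0.05 ± 0.25), Sqle (0.01 ± 0.23) and Stard4 (-0.06 ± 0.18) were near 0.

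Summed over the list, SREBP2 target transcripts were at 758, 860, 768 and, in IgG, 869 CPM in sgAcsl5 cells and at 598, 549, 674 and 616 CPM in sgNT. The sum was higher in 4 of 4 libraries, by 0.42 ± 0.20 on the log2 scale (SD, n = 4). By guide, the median over the 14 list genes in the guide comparison was 0.56, 0.26 and 0.59 for Acsl5_gRNA1, 2 and 3, against -0.30 to 0.39 in single nontargeting guides and -0.44 to 0.44 in the other 24 lipid guides, whose median was 0.22. Acsl5_gRNA2 thus lay within both ranges. With Acsl5_gRNA3 1 gene of the list was called, Cyp51, the lanosterol 14-alpha demethylase, at 1.02 ± 0.23 (adjusted p = 0.034, edgeR), with 22.3% of its UMIs from 1 cell. Across the other 82 targets of the pool the list median ran from -0.73 to 0.34.

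Fatty acid synthesis, elongation and desaturation genes were counted in the same way in sgAcsl5 cells, and the 2 genes called among them were Scd1 and Scd2. Of 14 genes tested out of 23, 12 were above 0, with a median of 0.30 beside -0.01 over all genes, and 5 were higher at an unadjusted p under 0.05, beside 192 of 10020 over all genes. By guide the median over 12 list genes was 0.34, 0.10 and 0.48, against -0.47 to 0.26 in single nontargeting guides, so that Acsl5_gRNA2 lay within that range. Acaca, acetyl-CoA carboxylase, was at 0.58 ± 0.21, Srebf1 at 0.47 ± 0.19 and Fasn, fatty acid synthase, at 0.45 ± 0.21, and none of these was called. The elongation cycle genes Tecr (0.03 ± 0.09), Hacd3 (-0.01 ± 0.17) and Hacd2 (-0.11 ± 0.17) were near 0.

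The other acyl-CoA synthetases did not follow as a group. Of the 8 tested genes of fatty acid activation and transport other than Acsl5, 2 were above 0: Acsl3 (1.69 ± 0.70, unadjusted p = 0.016) and Dbi, an acyl-CoA binding protein (0.32 ± 0.10, unadjusted p = 0.0016). Acsl4 was at -0.12 ± 0.15 and Acsl1 at -0.19 ± 0.62. Fatty acid oxidation genes had a median of 0.01 over 23 genes, and the sphingolipid genes of 0.01 over 17. Median UMIs per sgAcsl5 cell were 0.81, 0.96, 0.92 and, in IgG, 1.03 times those of sgNT, and their part in these differences was not tested.

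The list medians of SREBP2 targets were also taken in the other lipid enzymes, and the differences between enzymes were not tested. Behind Acsl5 came Agps at 0.27, Fads1 at 0.21 and Elovl1 at 0.19, with 17, 18 and 16 of 19 genes above 0 and 2, 3 and 2 higher at an unadjusted p under 0.05, none called. Over all 10020 genes 4656, 4852 and 4933 were above 0 in these knockouts and 114, 127 and 138 were higher at that level. All 3 medians lay within the range of the other targets of the pool. The summed level was higher than sgNT in 4 of 4 libraries for sgAgps (0.23 ± 0.06 on the log2 scale) and in 3 of 4 for sgFads1 (0.19 ± 0.24) and sgElovl1 (0.18 ± 0.23). Alox8 (median 0.08), Cyp4a30b (0.04), Phyh (-0.04), Asah2 (-0.10) and Pla2g4a (-0.11) lay near or below 0. For Fads1 and Elovl1 the spread between libraries was larger than the mean.

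In sgElovl1 cells the call was a gene of a T cell receptor locus. One gene of 10020 was called (0.00998%), Tcrg-C1, a constant region of the gamma chain of the gamma delta receptor. It was at 37.3, 32.8, 0 and, in IgG, 1.31 CPM against 0 to 0.33 CPM in sgNT, and its 76 UMIs came from 14 of 295 cells. DESeq2 did not call it (6.31, adjusted p = 1.0), and called 1 other gene, Gzmg, as lower. Of the Tcrg-C1 UMIs, 75 were in cells with Elovl1_gRNA2, where Trdv1 was called as well, and the call was absent without cells that had at least 10 UMIs of any other cell type list, among which is a gamma delta receptor list that holds Tcrg-C1 itself.

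The other enzymes of fatty acid synthesis, elongation and desaturation had a median of 0.07 in sgElovl1 cells over 13 genes, with 0 called by edgeR. Of these, 1 was lower at an unadjusted p under 0.05, Fasn at -0.53, beside 267 of all 10020 genes under 0.05 in either direction. Scd1 was at 1.24, with an unadjusted p over 0.05. Among SREBP2 targets the largest values were Idi1, isopentenyl diphosphate isomerase (0.46 ± 0.17, unadjusted p = 0.0074), Sqle, squalene epoxidase (0.38 ± 0.20), and Nsdhl (0.37 ± 0.24). Insig1 was at 0.02 ± 0.23.

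sgFads1 and sgAgps cells gave no called gene. With edgeR 0 of 10020 genes passed in sgFads1 cells (0%), while 324 were under 0.05 before adjustment and 1, Tecpr2, passed with DESeq2. Without anti-PD-1 replicate 3 or without IgG 1 gene passed, Prss2, a pancreatic trypsinogen (3.58 and 3.59 on the log2 scale). The acinar marker UMIs of sgFads1 cells, a list that holds Prss2, came from 1 cell in anti-PD-1 replicate 1 (18 of 18) and 1 cell in replicate 2 (14 of 14), beside 2 UMIs in IgG. For sgAgps cells edgeR also gave 0 genes (0%), with 283 under 0.05 before adjustment. DESeq2 gave 1 as lower, Krt19, an epithelial keratin (-16.7 on the log2 scale). The ether lipid and peroxisomal import genes other than Agps had a median of 0.11 over 7 genes in sgAgps cells, and the fatty acid synthesis list other than Fads1 a median of 0.02 over 13 genes in sgFads1 cells.

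In sgPhyh cells 2 genes were called (0.02%). Immp2l, a subunit of the mitochondrial inner membrane peptidase, was at 82.6, 13.1, 6.17 and, in IgG, 15.4 CPM against 7.47, 6.72, 2.87 and 5.79 CPM in sgNT, higher in 4 of 4 libraries, by 1.95 ± 0.38 on the log2 scale (adjusted p = 0.0063, edgeR). Its 41 UMIs came from 21 cells, 26.8% of them from 1 cell, and without anti-PD-1 replicate 1 it was at 1.12 and not called. All 18 UMIs of Gm26737 came from a single IgG cell. The other 22 oxidation genes tested had a median of 0.00.

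The calls with Pla2g4a and Alox8 guides rested mostly on single barcodes that held markers of other cell types beside T cell transcripts, and no doublet caller was run. In sgPla2g4a cells 9 genes were called (0.0898%), all higher, among them the macrophage genes Apoe and Cd14, the stress factor Atf3 and the metalloelastase Mmp12. For all 9 over 50% of the UMIs came from 1 cell with Pla2g4a_gRNA1 in anti-PD-1 replicate 3, which held 100 UMIs of myeloid markers and 61 of T cell identity genes in 16883 UMIs. Without cells with at least 10 UMIs of myeloid, B, epithelial, acinar or erythroid markers, none of the 9 was called, and DESeq2 called none of them on all cells either, but 1 other gene as lower, Gzmg.

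In sgAlox8 cells 66 genes were called (0.659%), all higher, led by the epithelial genes Krt18, Lgals4, Krt19, Clu and Krt8. For 63 of them over 50% of the UMIs came from 1 cell, and the same IgG cell with Alox8_gRNA3 was the top cell of 65. That cell held 91095 UMIs, of which 1504 were epithelial and 53 T cell identity UMIs. Without it and the other cells with markers of cell types other than T cells, 1 gene was called, Trav20, a T cell receptor alpha variable segment with 33 UMIs in 21 cells, found in anti-PD-1 replicates 1 and 2 (12.2 and 44.0 CPM) and at 0 in the other libraries. The number of genes called in each knockout ran from 0 to 66 with a median of 2 in the lipid enzymes, and from 0 to 111 with a median of 1 in the other 74 targets.

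A T cell receptor gene led the calls with Asah2 guides and with Cyp4a30b guides. In sgAsah2 cells 1 gene was called (0.00998%), Tcrg-C4, at 27.2, 55.1, 13.03 and, in IgG, 9.14 CPM against 3.09, 2.52, 8.12 and 5.57 CPM in sgNT, higher in 4 of 4 libraries, by 2.27 ± 0.47 (adjusted p = 0.029, edgeR). Of its 74 UMIs, 52 were in cells with Asah2_gRNA1, and the call was lost without anti-PD-1 replicate 1 (2.09), without replicate 2 (1.14), without the library block (2.26) and with DESeq2 (3.03). In sgCyp4a30b cells 3 genes were called (0.0299%). Trav3-3, an alpha variable segment, was at 27.5, 55.4, 2.48 and 2.85 CPM against 0.42 to 1.64 CPM, higher in 4 of 4 libraries, by 3.86 ± 0.59 (adjusted p = 5.6e-06, edgeR), and was not called without anti-PD-1 replicate 1 (3.46) or replicate 2 (2.81). With DESeq2 none of the 3 genes was called (Trav3-3 4.36, adjusted p = 0.93), and 2 others were called as lower, Igkc and Krt19. The other 2 edgeR calls, Gpr141 and Basp1, had 82.8% and 78.9% of their UMIs from 1 cell of anti-PD-1 replicate 1. The sphingolipid genes tested had a median of -0.10 in sgAsah2 cells over 17 genes.

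Single guides were compared with the mean of the nontargeting guides over 6993 genes, and each nontargeting guide with the mean of the others. For 948 of these genes a nontargeting guide had no UMI, which leaves their fitted fold changes dependent on that guide. The 27 lipid guides gave 154 calls (0.0816% of all tests), from 0 to 96 per guide with a median of 2, and the 34 nontargeting guides gave 75 (0.0315%), from 0 to 19 with a median of 1. Alox8_gRNA3, whose cells include the epithelial one, accounted for 96, and the next highest lipid guide for 8. The next highest nontargeting guide also had 8.

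The state of the T cells was described with 12 marker genes for each enzyme, 108 values in all, as the log2 ratio of CPM to sgNT within a library. With edgeR and with DESeq2 none of the 108 was called, and 6 were under 0.05 in edgeR before adjustment. All enzymes share the sgNT libraries, and with so many values some fall on one side of sgNT in every library without a difference, so the library counts below are descriptions. Of the 108 values, 4 were higher in all 4 libraries and 11 lower. The 4 higher ones were Pdcd1, the gene of PD-1, in sgPhyh (0.21 ± 0.10, SD, n = 4) and sgElovl1 cells (0.14 ± 0.06), Slamf6, a precursor marker, in sgElovl1 cells (0.18 ± 0.13) and Tcf7 in sgAsah2 cells (0.52 ± 0.57). The 11 lower ones were Tcf7 (-0.66 ± 0.41) and Ifng in sgAlox8, Slamf6 in sgAgps (-0.20 ± 0.17), Tox (-0.32 ± 0.19) and Gzmc (-2.31 ± 1.81) in sgAcsl5, Gzmb (-0.49 ± 0.31) and Ifng (-1.03 ± 0.63) in sgPhyh, Gzmc in sgAsah2 (-1.84 ± 2.03), Ccl5 in sgPla2g4a (-0.26 ± 0.10), and Ccl5 and Mki67 in sgFads1 cells. In sgElovl1 cells Tcf7, the transcription factor of precursor cells, was at 0.07 ± 0.79 and went either way.

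sgFads1 cells had the most marker values with an unadjusted p under 0.05, all lower than sgNT and none called. Ccl5, an effector chemokine, was at 2661, 2508, 3256 and, in IgG, 2208 CPM against 3541, 3381, 5755 and 2718 CPM, lower in 4 of 4 libraries by -0.49 ± 0.23 (SD, n = 4). Gzmb, granzyme B, was at 276, 438, 1599 and 1579 CPM against 1444, 1995, 2448 and 1210 CPM, lower in the 3 anti-PD-1 libraries and higher in IgG. Anti-PD-1 replicates 1 and 2 held 14 and 27 sgFads1 cells. Mki67, the proliferation marker, was lower in 4 of 4 libraries by -0.61 ± 0.58. Beside these, the precursor and memory list summed higher in 4 of 4 libraries (0.46 ± 0.25) and the effector list lower in 3 of 4 (-0.36 ± 0.27). They are 2 of 198 values over lists and enzymes, none of them tested.

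Of the other 3 such values, Ifng, interferon gamma, was lower in sgAlox8 cells in 4 of 4 libraries, at 283, 156, 178 and, in IgG, 241 CPM against 525, 502, 503 and 467 CPM (-1.25 ± 0.39). Klf2, a factor of quiescent and recirculating T cells, was higher in sgAcsl5 cells in the 3 anti-PD-1 libraries, at 95.8, 95.8 and 34.5 CPM against 42.6, 38.8 and 17.7 CPM, and lower in IgG, at 14.1 against 19.3 CPM. Gzmc in sgCyp4a30b cells ran from 0 to 779 CPM between libraries.

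Guide representation was compared between the 3 anti-PD-1 libraries and the IgG library as the share of single-guide cells per guide. Of 272 guides with at least 10 cells, edgeR called 0 (0%), 9 were under 0.05 before adjustment, and DESeq2 gave 0 as well. Among the 27 lipid guides none had an unadjusted p under 0.05, with 9 above and 18 below IgG and log2 fold changes from -1.51 to 1.72. Over all 272 guides 120 were above and 152 below, and over the 34 nontargeting guides 15 and 19. Without anti-PD-1 replicate 3, 5 lipid guides and 56 of 270 guides were under 0.05 before adjustment (lowest adjusted p of a lipid guide 0.18, edgeR), while without replicate 1 or 2 the totals were 1 and 0. The 3 Agps guides were on average below IgG, at 0.35%, 0.27% and 0.15% of cells against 1.01%, 0.45% and 0.47%, and the 3 Elovl1 guides on average above it, at 0.51%, 0.82% and 0.57% against 0.35%, 0.24% and 0.31%. Agps_gRNA2 was at 0.55% in anti-PD-1 replicate 3, above IgG. Elovl1_gRNA2 owed its mean to anti-PD-1 replicates 1 and 2 (1.06% and 1.26%), and was at 0.15% in replicate 3. With 1 IgG library, the treatment and the library cannot be told apart, and the spread in this test came from the anti-PD-1 libraries alone.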

How the data were processed

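Cell barcodes came from 4 single-cell libraries, 3 after anti-PD-1 and 1 after IgG. Per the labels and the study's methods, the authors aligned reads to mm10 and called guides with Cell Ranger 3.1.0. The deposited matrices hold raw UMI counts of genes and guides for filtered barcodes, and a second deposited file holds the number of guides called in each barcode. Barcodes with exactly 1 called guide and at most 10% mitochondrial UMIs were kept (23337 of 56359). No doublet caller was run, and 4107 barcodes with several guides were left out of all tests. Columns of other samples numbered 0. Enzymes and gene lists were chosen with earlier results of these data known.

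UMI counts were summed per target and library, leaving out sums of fewer than 10 cells, and 313 sums of 83 targets and sgNT entered 1 edgeR 4.0.16 quasi-likelihood fit (R 4.3.3, limma 3.58.1) with TMM scaling and the filter for low counts at its default of 10. The library was a block, since each enzyme and sgNT were compared within the same 4 libraries. Deviations of sums of the same library correlated with medians from 0.13 to 0.21, against -0.11 between libraries. They were taken from each target's mean over its libraries, which by itself pushes the value between libraries below 0. Guides were fitted separately over 156 sums, in which a guide could have fewer than 4 libraries. Cells per guide were compared between treatments by edgeR. Levels are CPM within the summed cells, and their log2 ratios used a prior of 2 CPM and carry the SD over 4 libraries, with no test. All adjusted p-values are Benjamini-Hochberg values from edgeR unless DESeq2 1.42.0 is named. Tables were handled in Python 3.11.15 with numpy 2.4.6, scipy 1.17.1 and pandas 2.3.3, and the fits were tested on simulated counts with 200 changed genes. Within edgeR, the solver and the dispersion likelihood were replaced by routines that skip the empty cells of the design. Of these routines, only the solver was compared with edgeR's own. Guides were matched to GENCODE M21 transcripts.

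The genes named were the 9 enzymes, up to 5 called genes per enzyme or guide with the smallest p, the 12 marker genes of T cell state and the list genes called in any comparison. Other list members, and Zdhhc6, were named after their values were seen. Some genes that these rules name are not reported here. In the gene tests, p-values measure the spread of sums around the fitted target or guide and library effects, and not a spread between animals. The study's methods name a correction between batches, which the labels do not assign to libraries. Alternatives covered the test, scaling, filters, the block, cell selection and each library left out.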

Additional observations from a re-analysis of the deposited data

Results flagged for a closer look

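Out of the 108 marker values above, those listed here lay on one side of sgNT in all 3 anti-PD-1 libraries and on the other side in IgG. All enzymes share the sgNT libraries, and with so many values some fall this way without a difference. These differences were not tested, since there is 1 IgG library, and values are the anti-PD-1 mean minus IgG in log2 ratio to sgNT. In sgAcsl5 cells the difference was 1.498 for Klf2, -0.55 for Havcr2, which encodes the inhibitory receptor TIM-3, -0.87 for Ifng and -0.46 for Mki67. In sgFads1 cells it was 1.66 for Tcf7 (0.54 ± 0.05 with anti-PD-1, SD, n = 3, and -1.11 with IgG), 0.39 for Slamf6 and -2.11 for Gzmb. In sgAgps cells it was -1.52 for Gzmb, -2.35 for Ifng and -0.90 for Mki67.

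For the other enzymes it was 0.55 for Tox in sgElovl1, 1.66 for Klf2 in sgAsah2, 0.53 for Ccl5 in sgAlox8, -0.45 for Ifng in sgPla2g4a and -5.16 for Gzmc in sgPhyh, where 2 of the libraries held 12 cells each. In sgCyp4a30b cells it was 0.76 for Il7r, the interleukin 7 receptor, 0.20 for Pdcd1 and -2.37 for Ifng.

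Barcodes with several guides entered no comparison above. Among them, 115 with an Acsl5 guide stood above 843 control barcodes in Scd2 in 4 of 4 libraries, by 0.94 ± 0.47 in log2 ratio (SD, n = 4). They were at 68.9, 90.6, 73.9 and, in IgG, 69.7 CPM, against 34.8, 28.7, 47.5 and 45.5 CPM. Acsl5 was lower in the same barcodes in 4 of 4 libraries (-0.58 ± 0.39), and the SREBP2 target list was higher in 4 of 4 (0.31 ± 0.25). Such barcodes can hold more than 1 cell.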

How the results depend on the processing

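The median of the SREBP2 target list in sgAcsl5 cells kept its direction in all 16 alternatives. Scd2 in sgAcsl5 cells stayed between 1.10 and 1.42 on the log2 scale and lost its call only with at least 5 guide UMIs per cell (1.10), where the Acsl5 transcript (-0.92) lost its call too. That setting leaves 876 of 2466 lipid knockout cells, and it gave 0 called genes for Elovl1, Acsl5, Pla2g4a, Asah2 and Cyp4a30b, 1 for Phyh and -0.058 for Atf3. Under it, 49 of 198 list levels and 19 of 108 marker levels moved to the other side of sgNT. With 1 library left out, 24 to 39 list levels and 10 to 21 marker levels did so.

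The replicate block was the library. Without the block sgAsah2 had 0 called genes and sgCyp4a30b 1, and no other count of calls moved by over 1.5 times.

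DESeq2 called 1 gene for Fads1, 5 for Acsl5, 1 for Agps, 1 for Pla2g4a, 4 for Alox8 and 0 for Asah2, and not Scd1 (4.03). Its calls for Elovl1 (1), Pla2g4a, Agps, Fads1 and Cyp4a30b (2) included no edgeR call. Apart from Acsl5 itself, the genes it called as lower had log2 fold changes from -22.8 to -15.5, which are not to be read as measured sizes. With every gene that had a UMI, 14 genes were called for Elovl1, 23 for Fads1, 28 for Acsl5, 25 for Phyh, 18 for Agps, 20 for Pla2g4a, 17 for Asah2 and 33 for Cyp4a30b, with 911 calls over lipid guides and 796 over nontargeting guides. With 1 sum per guide there were 4 for Elovl1, 1 for Agps and 1 for Cyp4a30b, with Gpr141 at -0.17. With the lipid enzymes and sgNT alone in the fit there were 0 for Elovl1, Phyh, Pla2g4a, Asah2 and Cyp4a30b and 3 for Alox8. With at least 20 cells per sum there were 2 for Elovl1, 1 for Phyh and 33 over nontargeting guides, and Scd2 was not called with Acsl5_gRNA2 (1.47) and Acsl5_gRNA3 (1.29). Adjustment over all targets gave 2 for Elovl1.

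Limits of 3 MAD on UMIs gave 2 for Elovl1 and 1 for Alox8, with Krt18 at -0.069, Krt19 at -2.01 and Krt8 at -0.74. Without cells with 10 UMIs of any other cell type list there were 0 for Elovl1, Pla2g4a and Asah2, 1 each for Phyh, Alox8 and Cyp4a30b, and -0.15 for Atf3. In 2 settings chosen after seeing the data, leaving out only cell types other than T cells gave 2 for Elovl1, 4 for Phyh, 0 for Pla2g4a, 1 for Alox8 and 1 for Cyp4a30b, with Gpr141 at -0.12, and summing anti-PD-1 libraries 1 and 2 gave 1 for Phyh, 0 for Asah2 and 1 for Cyp4a30b.

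Leaving out 1 library at a time, called genes ran from 0 to 2 for Phyh (0 without anti-PD-1 replicate 1), 0 to 1 for Asah2 and Fads1, 0 to 3 for Cyp4a30b, 1 to 2 for Elovl1, 0 to 9 for Pla2g4a (0 without anti-PD-1 replicate 3), 1 to 3 for Acsl5 and 1 to 69 for Alox8 (both 1 without IgG). Calls ran from 78 to 159 over lipid guides and from 40 to 81 over nontargeting guides. Scd1 ran from 2.87 to 4.29, Acsl5 from -0.98 to -0.76, and Scd2 from 1.23 to 1.39, 1.30 to 1.36 and 0.95 to 1.72 with Acsl5 guides 1, 2 and 3. Gpr141 ran from -0.089 to 4.33, Apoe from -0.56 to 3.81, Gm26737 from -1.83 to 4.14, Lgals4 from -0.86 to 6.21 and Krt8 from -2.48 to 7.80. The cause of these changes was not tested beyond the values given here. Groups of as few as 11 cells limit what could be detected in sgPhyh and sgAgps cells.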
